A study of Mus musculus with 8 samples.

Results

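Imprinted genes are transcribed mainly from 1 parental copy. DNA methylation laid down in the egg or the sperm is kept in the body's cells on 1 copy, which need not be the transcribed one. The Dlk1-Dio3 locus of mouse chromosome 12 is the standard example in blood: the maternal copy gives the long noncoding RNAs Meg3 (also Gtl2), Rian and Mirg, which carry small nucleolar RNAs and microRNAs, and the paternal copy gives protein-coding genes such as Dlk1. Imprinted genes are known as a group whose transcripts are enriched in long-term hematopoietic stem cells (HSCs), where many of them restrain growth and cell division. The 10 genes described here, of 32285 in the deposited matrices, are a list given by name, drawn up with earlier results of these data known: the noncoding RNAs Meg3, Rian, Mirg and H19, and the protein-coding genes Igf2r, Grb10, Ndn, Peg3, Plagl1 and Impact.

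The counts came from Lineage- c-Kit+ bone marrow cells, a mixture of stem cells and progenitors of the blood lineages, of 8 wild-type mice, with a library for each mouse. At each age 1 male and 1 female were profiled: 14 weeks (young), 50 weeks (middle-aged), 78 weeks for the male and 79 for the female (old), and 95 weeks (very old). The mice carried no engineered allele and received no treatment that the labels name, and the 2 very old libraries belong to another library series than the other 6, so that age 95 weeks and library series cannot be told apart. Each age is thus 2 mice, which also differ in sex, and no mouse has a replicate of its own age and sex. In the fits with age group and sex as separate terms, p-values are set against what those terms leave unexplained. They do not measure the spread between mice of the same age and sex. The libraries held 83062003 to 150135029 UMIs (unique molecular identifiers, each standing for 1 captured RNA molecule), with a median of 8505 to 14951 per cell, and 59136 cells were kept. Any pair of libraries shared 6 to 27 cell barcodes.

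Stem cells were found by clustering, since the files used here hold no cell type names. The single cluster led by Hlf, Ly6a, Procr and Mecom is called HSC-like. It held 4770 cells, 403 to 900 per mouse, and its summed counts gave 389 CPM (UMIs of a gene per 1000000 UMIs of the summed cells) for Hlf, 111 for Procr and 131 for Mecom. Of 12 markers of marrow stroma 10 were under 1 CPM in it, with 3 UMIs of Cxcl12 and 0 of Col3a1, while Pdgfrb had 354 UMIs (8.94 CPM) and Col1a2 100 (2.52 CPM). The summed level of the 12 was 12.6 to 20.8 CPM in the young mice, 8.70 to 12.5 in the males and 12.97 to 15.2 in the females of 50 weeks and over. The HSC-like cells were 5.08 and 5.70% of all cells in the young mice and 7.17 to 13.5% in the old and very old mice. Over the 21 genes of the HSC marker list, the summed level within these cells was 2346 and 2450 CPM in the young mice, 3003 to 3519 in the 3 females of 50 weeks and over and 4049 to 4579 in the 3 males of those ages. The 12 genes of the multipotent progenitor (MPP) list ran the other way, with 1915 and 2419 in the young mice and 841 to 1452 in the others. These lists move with the groups compared below, and their part in the values of the imprinted genes was not tested. Mitochondrial transcripts were 5.37 to 7.30% of UMIs in these cells. Malat1, a nuclear RNA, stood at 12314 and 12642 CPM in the young male and female, 20135 and 17101 in the old and 11374 and 11139 in the very old. The 12 immediate early genes summed to 352 and 422 CPM in the young, 911 and 636 in the old and 346 and 316 in the very old. The 8 macrophage markers summed to 34.5 and 33.7 in the young mice and 4.32 to 15.1 in the old and very old mice. The part of these in the age differences was not tested.

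Meg3, Rian and Mirg follow each other on the same strand of chromosome 12, as the files' gene identifiers place them in GENCODE vM21 of GRCm38: Meg3 at chr12:109541001-109571726, Rian at chr12:109603940-109661716 and Mirg at chr12:109729764-109749460, all on the plus strand. Between Meg3 and Rian lie 32213 bases, between Rian and Mirg 68047, and the end of Dlk1 is 77664 bases from the start of Meg3. The other members lie elsewhere: H19 at chr7:142575529-142578143 (minus strand), Ndn at chr7:62346569-62350262 (plus), Peg3 at chr7:6703892-6730431 (minus), Igf2r at chr17:12682406-12769664 (minus), Grb10 at chr11:11930508-12038683 (minus), Plagl1 at chr10:13060504-13131694 (plus), and Impact on yet another chromosome. Airn, itself an imprinted noncoding RNA, overlaps Igf2r on the other strand, and Gm32061 overlaps Ndn on the other strand. The counts are of whole transcripts, so the microRNAs cut from these RNAs were not measured.

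The microRNAs show what the noncoding members carry. In RefSeq on GRCm38.p6, 1 hairpin lies inside Meg3, 3 inside Rian, 14 inside Mirg and 1 inside H19. They give 2, 6, 26 and 2 mature microRNAs, with 35 distinct seeds among them. A seed is bases 2 to 8 of the microRNA, which pair with the target, and it is in capitals below, for the microRNAs of Meg3 and H19 and for well-known ones of Rian and Mirg. The only seed found more than once, GGUUGCC, belongs to miR-453 and miR-496a-5p in Mirg, so the microRNAs of the different hosts shared none.
miR-770-5p (Meg3): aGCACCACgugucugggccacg
miR-770-3p (Meg3): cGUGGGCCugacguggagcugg
miR-370-3p (Rian): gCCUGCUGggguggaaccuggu
miR-134-5p (Mirg): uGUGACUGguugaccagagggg
miR-410-3p (Mirg): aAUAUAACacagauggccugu
miR-453 (Mirg): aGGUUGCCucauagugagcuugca
miR-496a-5p (Mirg): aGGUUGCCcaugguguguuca
miR-675-5p (H19): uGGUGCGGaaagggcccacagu
miR-675-3p (H19): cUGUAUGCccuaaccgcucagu

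Promoters are printed for Meg3, Rian and Ndn, the members with the largest differences between the ages among those tested in HSC-like cells. Each is the plus strand of GRCm38.p6 from RefSeq, 250 bases before to 50 after the annotated start: chr12:109540746-109541045 for Meg3, chr12:109603695-109603994 for Rian and chr7:62348027-62348326 for Ndn. The letters searched, on both strands, were GGGCGG (the GC box), TATAAA (the TATA box) and TGACGTCA (the full cyclic AMP response element), and matches are in capitals.
Meg3: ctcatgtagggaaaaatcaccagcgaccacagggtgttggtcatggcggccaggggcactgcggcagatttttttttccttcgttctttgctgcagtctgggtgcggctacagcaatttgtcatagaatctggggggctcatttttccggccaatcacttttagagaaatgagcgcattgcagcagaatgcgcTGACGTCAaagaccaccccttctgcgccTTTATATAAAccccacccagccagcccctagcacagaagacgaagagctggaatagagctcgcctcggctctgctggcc
Rian: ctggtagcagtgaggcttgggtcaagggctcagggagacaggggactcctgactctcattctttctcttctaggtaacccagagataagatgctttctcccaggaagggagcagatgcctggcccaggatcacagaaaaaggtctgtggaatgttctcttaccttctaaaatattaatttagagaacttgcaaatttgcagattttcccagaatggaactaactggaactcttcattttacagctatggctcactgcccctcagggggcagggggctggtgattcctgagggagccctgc
Ndn: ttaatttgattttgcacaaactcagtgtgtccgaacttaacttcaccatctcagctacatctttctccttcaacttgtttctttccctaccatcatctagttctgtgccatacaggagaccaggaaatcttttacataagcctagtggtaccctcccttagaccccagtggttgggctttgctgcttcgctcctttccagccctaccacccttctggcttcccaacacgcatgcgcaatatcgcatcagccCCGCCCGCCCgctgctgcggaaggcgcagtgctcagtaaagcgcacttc
The Meg3 window held TGACGTCA and, downstream of it, TATAAA read on both strands in overlapping copies. Of 32851 promoters of this length, 1.79% held TGACGTCA, 13.6% TATAAA and 35.7% GGGCGG. The Ndn window held overlapping copies of CCGCCC, the GC box read on the other strand, and the Rian window held none of the 3. The Meg3 window had 13 CpG dinucleotides, Ndn 11 and Rian 0, against a median of 7 over all promoters. The Igf2r window had 34 CpG. The table holds a second promoter for Meg3, with 1 CpG and none of the 3 letter strings, and 2 for Grb10, with 45 and 9 CpG. The Meg3 promoter printed is the one beside the annotated start of the gene. The Ndn window, set by the RefSeq start, lies inside the gene as GENCODE vM21 places it (chr7:62346569-62350262), not at that start.

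Most transcripts of Meg3, Rian, Mirg, Peg3 and Ndn were found in the HSC-like cells. These cells were 8.07% of all cells and gave 4.44% of all UMIs, but held 4281 of 5789 Meg3 UMIs (74.0%), 298 of 426 Rian UMIs (70.0%), 53 of 71 Mirg UMIs, 20 of 30 Peg3 UMIs and 1209 of 1984 Ndn UMIs. Ndn encodes necdin, a growth suppressor of the MAGE family, and Peg3 encodes a large zinc-finger protein. Grb10 and Impact were not restricted in this way, with 1052 of 10442 and 1053 of 9706 UMIs in HSC-like cells, nor was Igf2r, with 346 of 4350. Grb10 encodes an adaptor that dampens insulin and IGF receptor signalling, Igf2r the receptor that clears IGF2 from the cell surface, and Impact an inhibitor of Gcn2, the kinase that senses amino acid shortage.

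The levels by class are a description, as CPM within the class, without scaling between libraries and with the SD over the 8 mice. Meg3 stood at 90.0 ± 91.6 in HSC-like cells, 8.49 ± 11.4 in MPP-like cells, 4.49 ± 8.59 in megakaryocyte-like cells and 5.99 ± 13.7 in the 338 macrophage-like cells. In erythroid-like, granulocyte progenitor-like, monocyte progenitor-like and basophil-mast-like cells it was at 0.445 to 0.667. In 8 of 8 mice Meg3 was higher in the HSC-like cells than in each other class. Within the MPP-like class, 1 cluster of 3 held 684 of the 832 Meg3 UMIs, at 74.1 CPM against 1.46 and 2.83 in the other two. Its cells had a median of 1870 to 3168 UMIs and 20.7 to 31.6% mitochondrial transcripts, and in the old male its Meg3 level (264) was above that of the HSC-like cells (235). Rian too was highest in the HSC-like cells, with 6.42 ± 5.77, and stood at 0.484 in MPP-like cells, 0.403 in megakaryocyte-like cells and 0 UMIs in macrophage-like cells.

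Ndn stood at 28.4 ± 12.7 in HSC-like cells, 5.52 ± 3.93 in megakaryocyte-like cells and 2.41 ± 1.41 in MPP-like cells, and it too was highest in the HSC-like cells in 8 of 8 mice. The ranges of 1 SD around the megakaryocyte-like and MPP-like levels of Ndn overlap. Grb10 was at 25.3 ± 7.59 in HSC-like cells and 21.0 ± 5.70 in erythroid-like cells, a gap smaller than either SD, and the HSC-like cells were higher in 6 of 8 mice. Below them came megakaryocyte-like and basophil-mast-like cells, both at 12.5, and at the bottom monocyte progenitor-like cells at 0.726. Igf2r was at 8.32 ± 3.45 in HSC-like cells and 9.54 ± 1.26 in erythroid-like cells, and the HSC-like cells were higher in 3 of 8 mice. Impact was at 26.0 ± 4.65 in HSC-like cells and spread over the other classes at 6.82 to 22.2.

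H19 and Plagl1 had few UMIs anywhere. H19, the maternally expressed RNA next to Igf2, gave 39 UMIs in all cells, of which 14 were in HSC-like cells and 16 in an unnamed cluster of 100 cells led by Trbc1, Tcf7, Rora and Gata3. Those 16 came from 2 cells, with 13 UMIs in the middle-aged male and 3 in the very old male. Plagl1, a zinc-finger factor that limits growth, gave 53 UMIs, and 33 of them (62.3%) were in megakaryocyte-like cells, which gave 6.36% of all UMIs, against 1 in HSC-like cells. The shares of H19, Plagl1 and Peg3 rest on 30 to 53 UMIs each.

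**Figure D1:**
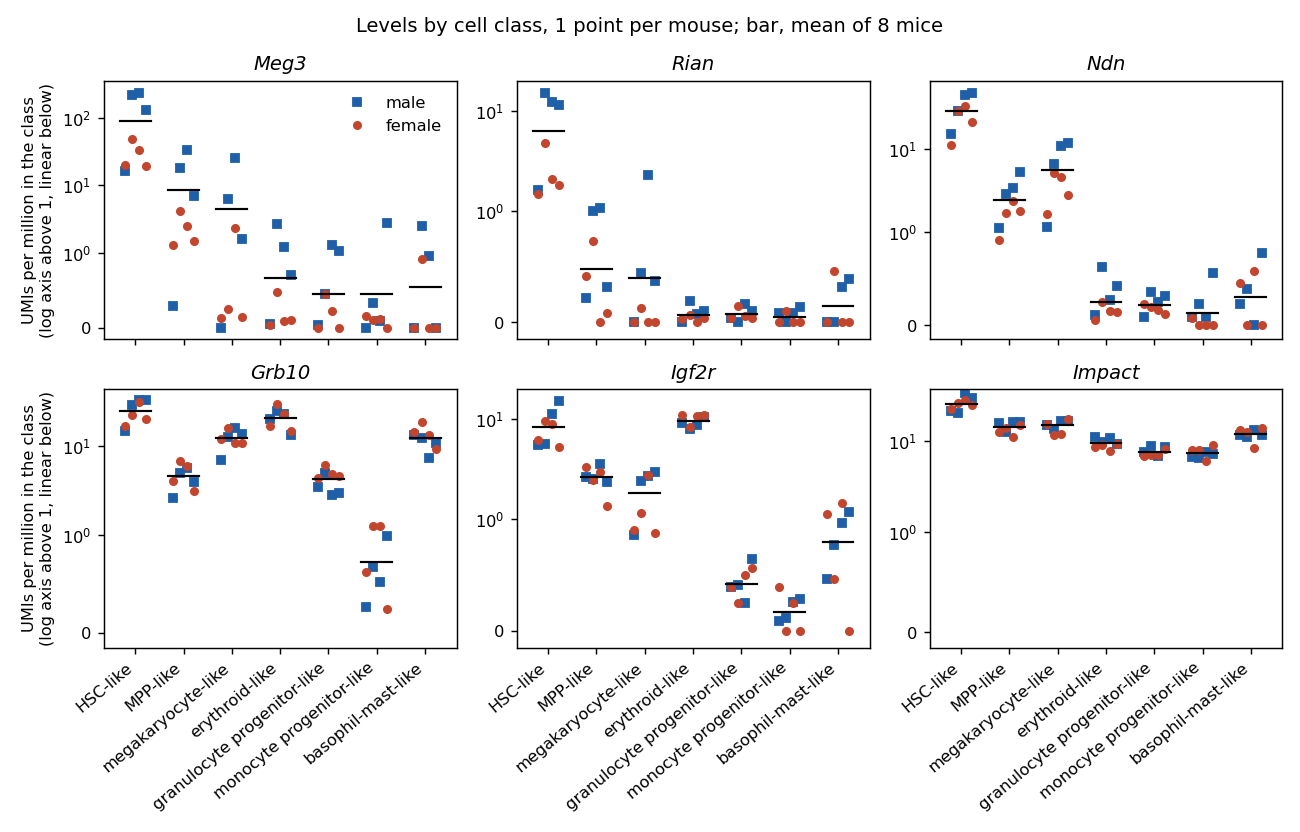
Level of the imprinted genes in each cell class, as CPM within the class, with 1 point per mouse (squares, males; circles, females), a bar at the mean of the 8 mice and an axis that is logarithmic above 1 and linear below. Meg3 reaches its highest levels in HSC-like cells, at a mean of 90.0, while Grb10 is about as high in erythroid-like cells (21.0) as in HSC-like cells (25.3).

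Free RNA in a droplet can give UMIs in cells that do not express a gene, and deeper cells show more genes. Shares of HSC-like cells with Meg3 were set beside those of other classes, with cells of 4000 or more UMIs thinned to 4000. Shallower cells were left out: 4311 of 4770 HSC-like, 8145 of 9422 granulocyte progenitor-like, 11119 of 14155 erythroid-like and 3898 of 4131 megakaryocyte-like cells entered. MPP-like cells were not thinned. Thinning evens the depth and does not measure free RNA. Of 4311 thinned HSC-like cells, 14.4% held Meg3 (Wilson 95% interval 13.4 to 15.5%), against 0.0859% of 8145 granulocyte progenitor-like cells, 0.162% of 11119 erythroid-like cells and 0.693% of 3898 megakaryocyte-like cells. Before thinning, 18.3% of all HSC-like cells and 0.255% of all granulocyte progenitor-like cells held Meg3. The cells that entered the thinning had medians of 8428 and 20467 UMIs before it. These intervals cover counting error only. Thinned HSC-like cells held Ndn in 11.3% and Rian in 2.97%, against 0.110% and 0.0246% of the granulocyte progenitor-like cells. For Grb10 the share was 9.53% in HSC-like and 7.46% in erythroid-like cells, and for Igf2r 3.80 and 4.15%.

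With age, Ndn was higher in HSC-like cells from 50 weeks on, and Meg3 and Rian were higher mainly in the males of 50 weeks and over. UMIs were summed over the HSC-like cells of each mouse and scaled with TMM factors, and levels below are CPM on that scale. Of the 10 members 6 passed the filter on low counts and were tested. Rian had 6 UMIs in each young mouse and passed through the older mice where it was higher, which limits what its calls show. Mirg, H19, Peg3 and Plagl1 did not pass, and had 0 to 24 UMIs in any mouse.

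Meg3 stood at 15.5 in the young male and 19.1 in the young female, at 219 and 48.3 in the middle-aged male and female, at 238 and 33.8 in the old male and female, and at 136 and 20.6 in the very old male and female. Every older mouse was above both young mice on this scale, by the least in the very old female, and the 3 older males stood far above all others. The share of all genes with every older mouse above both young mice was not counted. With the old and very old mice alone it was 17.1% of the genes tested. Without the TMM factors the very old female, at 19.3, was below the young female, at 20.04. The counts behind these levels were 60 and 81 UMIs in the young mice, 1293, 1619 and 786 in the older males and 214, 143 and 85 in the older females. The mean of each age, 17.3 ± 2.56, 134 ± 121, 136 ± 144 and 78.4 ± 81.7 (SD, n = 2) from young to very old, has an SD about as large as the mean after 14 weeks, because male and female lie apart.

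Rian, the neighbour that hosts a cluster of C/D small nucleolar RNAs, had 1.55 and 1.42 in the young male and female, 15.6 and 4.74 in the middle-aged, 12.5 and 2.13 in the old and 12.3 and 1.94 in the very old. The pattern was that of Meg3, on 6 UMIs in each young mouse and 8 to 92 in the others. Mirg gave 1 and 0 UMIs in the young male and female, 24 and 2 in the middle-aged, 12 and 3 in the old and 11 and 0 in the very old. The 3 older males again held most of the Mirg UMIs. Without the filter on low counts edgeR called Mirg for middle-aged against young (3.89, adjusted p = 0.0185), but not for old and very old against young (2.86, adjusted p = 0.109).

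Ndn stood at 14.2 and 10.6 in the young male and female, 28.6 and 28.0 in the middle-aged, 44.5 and 32.4 in the old and 49.2 and 22.3 in the very old. All 6 older mice were above both young mice, and in contrast to Meg3 the middle-aged male and female had nearly the same level. Grb10 stood at 14.0 and 16.1 in the young, 29.5 and 22.4 in the middle-aged, 33.8 and 31.7 in the old and 35.3 and 21.5 in the very old, again with no overlap between young and older mice. The share of all genes in which all 6 older mice lay above both young mice was not counted, and with the old and very old mice alone it was 17.1%. Impact stood at 20.4 and 21.7 in the young, 20.5 and 25.7 in the middle-aged, 34.5 and 28.6 in the old and 31.4 and 26.6 in the very old. For Impact the middle-aged male lay at the level of the young mice. Igf2r stood at 5.17 and 5.91 in the young, 5.59 and 9.26 in the middle-aged, 11.2 and 8.76 in the old and 15.8 and 5.56 in the very old, so the very old female lay within the young range.

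**Figure D2:**
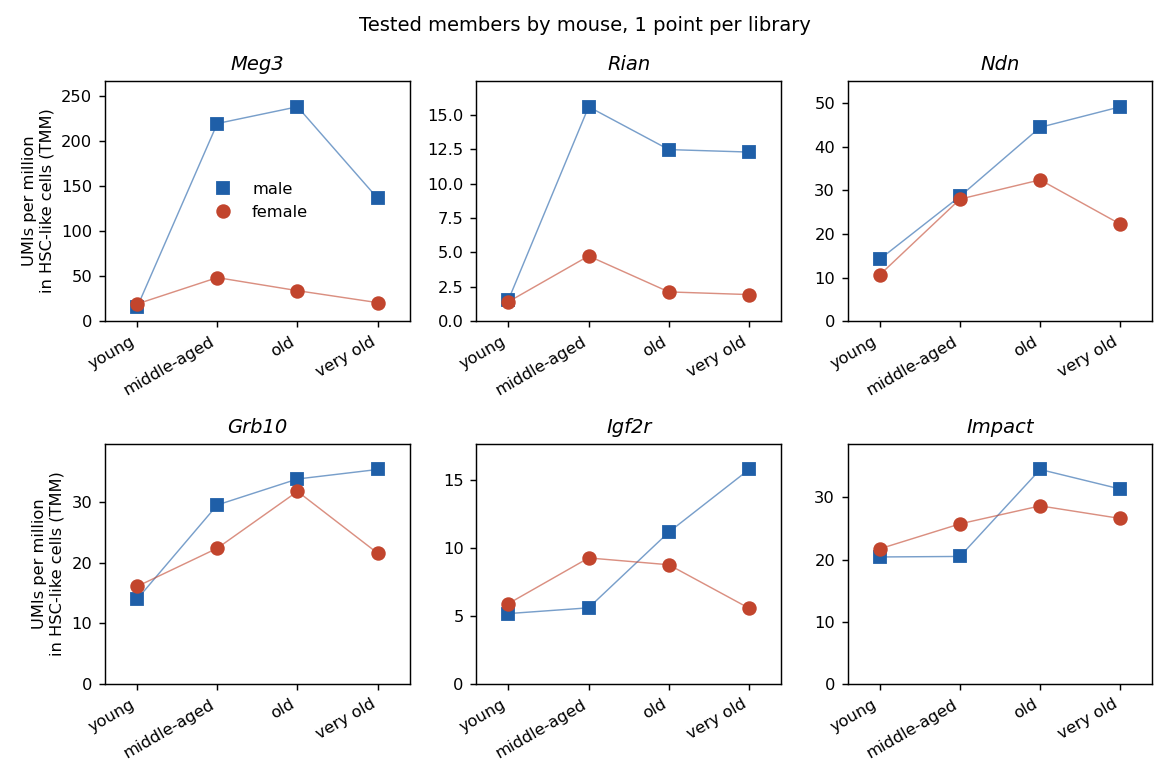
Level of imprinted genes in the HSC-like cells of each mouse by age group, from young to very old, as CPM on the TMM scale, with lines that join different mice of the same sex. Meg3 and Rian are high in the 3 males of 50 weeks and over, while Ndn and Grb10 are above the young mice in both sexes.

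In edgeR's quasi-likelihood test of the 4 old and very old mice against the 2 young mice, with age group and sex as terms, 5 of the 6 tested members were higher, 0 were lower and Igf2r did not pass. Of all 11706 genes tested, 11.4% passed at an adjusted p under 0.05, 7.47% as higher and 3.92% as lower. The median log2 difference was 1.29 over the tested members and -0.01 over all genes tested. Of the 21 genes of the HSC marker list 17 were higher and 0 lower (81.0%), with a median of 0.86. Whether the members rose beyond such markers was not tested. For 5 of the 6 each of the 4 old and very old mice was above both young mice, which held for 17.1% of all genes tested. Meg3 is among the 5 on the TMM scale only.

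Ndn was higher by 1.57 on the log2 scale (SE 0.21, adjusted p = 0.000466) and Grb10 by 1.01 (SE 0.18, adjusted p = 0.00344). Meg3 was higher by 2.15 (SE 0.44, adjusted p = 0.00695) and Rian by 2.16 (SE 0.44, adjusted p = 0.00700). Impact was higher by 0.53 (SE 0.16, adjusted p = 0.0464), the smallest of the called differences, and Igf2r differed by 0.89 (SE 0.37, adjusted p = 0.146). Igf2r moved with the very old mice: it was at 0.38 without the very old male and at 1.202 without the very old female, where it passed (adjusted p = 0.0214), as it did without the filter on low counts (adjusted p = 0.00701). The calls for Ndn and Grb10 held under each of 17 other settings. That for Meg3 ended in DESeq2 (1.67, adjusted p = 0.311), without the sex term (2.60, adjusted p = 0.132) and with age as a linear term in weeks (adjusted p = 0.443). That for Rian ended under 4 of the 17: in DESeq2 (1.90, adjusted p = 0.0529), without the sex term (2.36, adjusted p = 0.173), with age in weeks (adjusted p = 0.396) and with clusters made without Harmony (1.27, adjusted p = 0.104). The call for Impact ended under 13 of the 17.

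The differences of Meg3 and Rian were smallest without the young male. Without it, the young group is 1 female, whose spread is assumed to be that of the other groups, and the fit then took the male-female difference from older mice alone. The differences then fell to 0.60 for Meg3 (adjusted p = 0.264), 0.82 for Rian (adjusted p = 0.576) and 0.71 for Grb10 (adjusted p = 0.188), the genes called fell from 1333 to 155, and the members called fell to 1. Without the young female Meg3 stood at 3.46 and Grb10 at 1.31. The member still called was Ndn, which kept its call without each mouse in turn, at 1.29 to 1.71. Meg3 also lost its call without the very old male, and Rian without the old male or the very old male. Impact lost its call without 6 of the 8 mice, all but the middle-aged ones, with adjusted p up to 0.394.

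Between 14 and 50 weeks, 3 of the 6 tested members were higher in edgeR, against 2.05% of all genes called and 1.48% called higher. Of the 21 genes of the HSC marker list 10 were higher and 0 lower (47.6%). Rian was higher by 2.70 (SE 0.46, adjusted p = 0.00716), Meg3 by 2.62 (SE 0.47, adjusted p = 0.00954) and Ndn by 1.19 (SE 0.24, adjusted p = 0.0223). Rian was at 1.38 without the young male and 3.45 without the young female. Grb10 (0.77, adjusted p = 0.0814), Igf2r (0.38, adjusted p = 0.749) and Impact (0.12, adjusted p = 0.825) did not pass. Grb10 passed without the filter on low counts (adjusted p = 0.00254) and without the young female (1.07, adjusted p = 0.0419). DESeq2 gave 2.20 for Meg3 with an adjusted p of 0.461. Without the young male 0 members passed, Meg3 being at 1.13 (adjusted p = 0.121), and without the middle-aged male 1 did, which was Ndn. The Ndn call ended without the young male (1.13, adjusted p = 0.439), the young female (1.25, adjusted p = 0.0602) or the middle-aged female (0.88, adjusted p = 0.0945). Both contrasts share the young mice, so they are not separate evidence.

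Between the old and the very old mice, 0 of the 6 tested members passed in edgeR, with 0 at an unadjusted p under 0.05, and 0 passed in DESeq2, while 0.179% of all genes did. Meg3 had the largest difference, -0.76 (SE 0.38, adjusted p = 0.609). It was at -1.27 without the very old male and -0.106 without the old male. Without the filter on low counts Meg3 passed in edgeR (adjusted p = 1.27e-05). The others were at -0.19 for Grb10, -0.13 for Impact, -0.12 for Ndn, -0.04 for Rian and 0.12 for Igf2r.

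**Figure D3:**
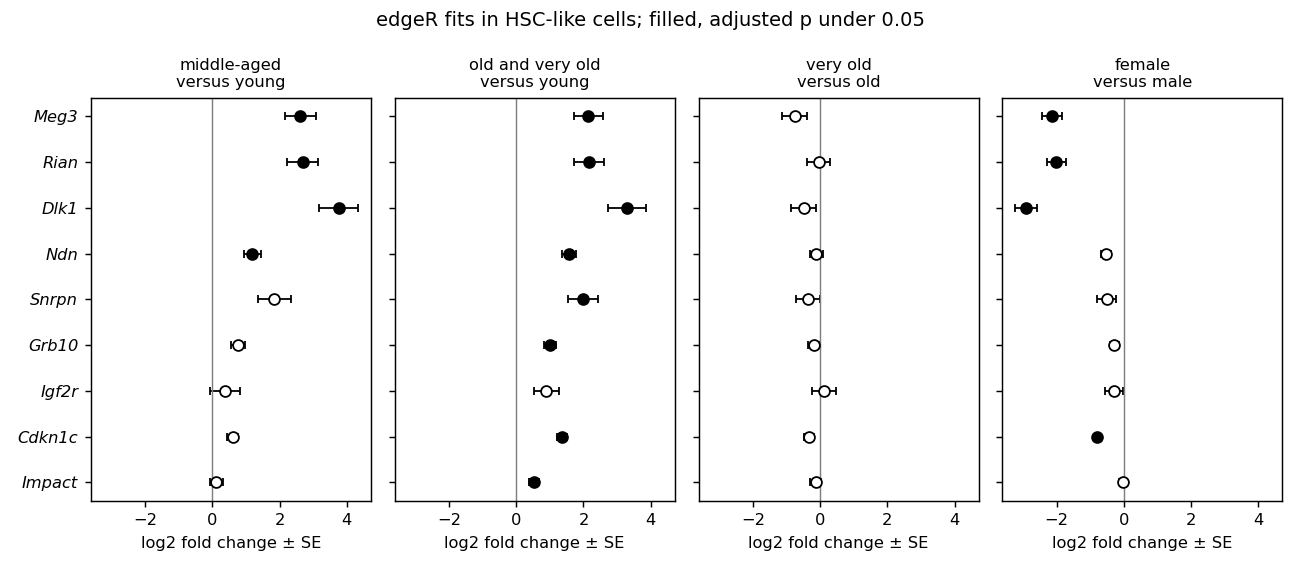
Log2 differences of the tested imprinted genes in HSC-like cells with their standard errors, for the age comparisons and for females against males, with filled points where the adjusted p from edgeR was under 0.05. Ndn (1.57) and Grb10 (1.01) have short error bars above 0 in old and very old against young mice, and the bars of Meg3 and Rian for sex lie below 0.

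Males and females differed most in the chromosome 12 members. Over all 4 ages, 2 of the 6 tested members were lower in females in edgeR, against 0.649% of all genes called and 0.393% called lower: Meg3 by -2.13 (SE 0.30, adjusted p = 0.00337) and Rian by -2.01 (SE 0.28, adjusted p = 0.00324). Rian had 71 to 92 UMIs in the males of 50 weeks and over and 6 to 21 in the other 5 mice. It passed the filter on low counts mainly through those males, which limits what its sex calls show, here and below. Ndn was at -0.52 (adjusted p = 0.172), Grb10 at -0.29, Igf2r at -0.30 and Impact at -0.04, none of which passed. Ndn did pass for sex in 4 other fits: without the filter (adjusted p = 0.00190), with cells picked by markers (adjusted p = 0.0411), and without the middle-aged male (-0.71, adjusted p = 0.04995) or female (-0.71, adjusted p = 0.0481). Mirg passed without the filter, at -2.68 (adjusted p = 0.00550). The male level of Meg3 was 0.811 times the female level at 14 weeks, 4.53 times at 50, 7.02 times in the old mice and 6.62 times in the very old mice. For Rian these ratios were 1.09, 3.29, 5.86 and 6.35, and for Ndn 1.34, 1.02, 1.37 and 2.21. For Meg3 and Rian the 3 males of 50 weeks and over lay above each of the other 5 mice, as did 4.08% of all genes tested.

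In the 6 mice of 50 weeks and over alone, a comparison added after these values were seen, Meg3 was lower in females by -2.55 (SE 0.13, adjusted p = 3.85e-07) and Rian by -2.20 (SE 0.25, adjusted p = 0.000879), with 1.10% of genes called and 0.586% called lower. Ndn (-0.54), Grb10 (-0.39), Igf2r (-0.40) and Impact (-0.08) did not pass. With all 8 mice, DESeq2 gave -1.93 for Meg3 (adjusted p = 0.350) and -1.92 for Rian (adjusted p = 0.0085). The Meg3 call ended without the old male, without the very old male or without the very old female, with adjusted p up to 0.0698 and differences of -2.55 to -1.81 over the mice left out, and in the 6 libraries of 1 series (-1.93, adjusted p = 0.0610). The Rian call ended without the old male (adjusted p = 0.0589), where 0 members passed, and held without each other mouse, at -2.20 to -1.79 over the mice left out. At any 1 age the sexes are 1 mouse each, so a sex difference at that age cannot be told apart from one between single mice. Xist counts in HSC-like cells, 2 to 5 in males and 8065 to 9890 in females, match the labelled sexes.

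Whether the sexes differed in their change with age was tested as an interaction. The first fit set the sex difference of the old and very old mice against that of the young and middle-aged mice together. A change from 14 weeks alone was thus not tested by it. In this fit 0 of 11706 genes passed in edgeR (0%), among them 0 of 6 members, with 605 genes and 4 members at an unadjusted p under 0.05. Meg3 was at -1.36 (SE 0.47, adjusted p = 0.899), Igf2r at -1.40, Rian at -1.18, Ndn at -0.61, Impact at -0.47 and Grb10 at -0.22. Without the filter on low counts Meg3 passed (adjusted p = 9.07e-07) at the same difference of -1.36. That setting called more genes in every comparison it was run on, for sex 440 against 76. Calls gained only there are therefore weak evidence. The sex difference of all mice of 50 weeks and over against that at 14 weeks was added after the values were seen, and 3 genes passed (0.0256%, 0.00854% with a lower value): Meg3 and the genes Mpo and Tespa1. For Meg3 this difference was -2.85 (SE 0.34, adjusted p = 0.0208), and DESeq2 called the same 3 genes. Rian was at -2.08, Igf2r at -0.59, Grb10 at -0.59, Impact at -0.16 and Ndn at -0.12, none of which passed. The contrast was built from the pattern it tests, so its p-values are no independent evidence of that pattern. It rests on 1 male and 1 female at 14 weeks, and the Meg3 call ended without the old male (adjusted p = 0.0579) or the very old female (adjusted p = 0.128), with cells picked by markers instead of clusters (-2.61, adjusted p = 0.257) and at resolution 0.4 (adjusted p = 0.122).

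The males of 50 weeks and over had more HSC-like cells with Meg3, and the middle-aged and old males also had more Meg3 UMIs in each such cell. After thinning, Meg3 was found in 25.5% (Wilson 95% interval 22.1 to 29.2%) of the HSC-like cells of the middle-aged male, 23.8% (20.9 to 26.9%) of the old male and 23.0% (20.05 to 26.3%) of the very old male. The females of these ages had 9.84% (7.26 to 13.2%), 6.29% (4.49 to 8.74%) and 3.51% (2.28 to 5.36%). The young male had 3.45% (1.98 to 5.93%) and the young female 4.73% (3.08 to 7.19%). These intervals cover the counting of cells within 1 mouse, not the spread between mice. A positive cell held 3.53, 3.71 and 2.34 Meg3 UMIs on average in the middle-aged, old and very old male, and 1.58 to 2.25 in the other 5 mice. The very old male thus lay close to the highest of those 5. Cells with 5 or more were 5.47, 7.42 and 2.01% of all thinned HSC-like cells in the males of 50 weeks and over and at most 0.946% in any other mouse. These shares also rise with the share of positive cells.

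Even in these males most HSC-like cells showed no Meg3. In the old male 76.2% of the thinned cells held 0 UMIs, 6.67% held 1 and 9.69% held 2 to 4, and the variance of the counts was 4.99 times their mean. For Ndn in the same mouse the variance was 1.09 times the mean, and 16.5% of cells held a UMI. The Ndn share was 5.46 and 4.96% in the young male and female, 10.3 and 8.03% in the middle-aged, 16.5 and 11.8% in the old and 18.1 and 7.02% in the very old.

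**Figure D4:**
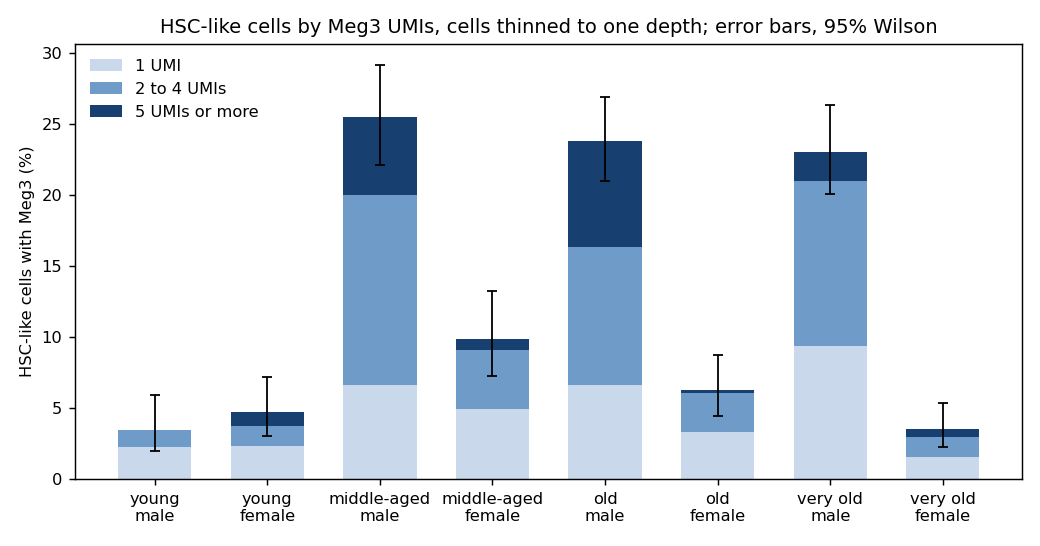
Share of thinned HSC-like cells by their number of Meg3 UMIs in each mouse, as stacked bars in percent of cells with the 95% Wilson interval of the whole share with Meg3. Cells with 5 or more reach 7.42% in the old male and stay at or under 0.946% in the young mice and in all females.

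Rian was found mainly in cells that also held Meg3. In the 3 males of 50 weeks and over, 20.1% of 498 thinned cells with Meg3 held Rian, against 0.634% of 1577 cells without, and 90.9% of the cells with Rian held Meg3. In the other 5 mice these shares were 11.5% of 122 and 0.189% of 2114. Dlk1, which encodes a transmembrane protein of the Notch ligand family and is read from the paternal copy of the same locus, was in 14.9% of the Meg3 cells and 3.11% of the rest in those males. For members on other chromosomes the shares in cells with and without Meg3 were closer in those males. Ndn was in 18.1 and 14.4%, Grb10 in 14.3 and 10.5%, Igf2r in 3.61 and 4.82% and Impact in 10.6 and 10.7%. Vwf, a gene of platelet-biased stem cells, was in 22.9 and 11.98%. In the other 5 mice Ndn (15.6 and 7.19%), Grb10 (18.9 and 7.14%) and Impact (13.1 and 9.51%) lay further apart. There Igf2r was in 2.46 and 3.17%, Dlk1 in 6.56 and 0.568% and Vwf in 20.5 and 7.66%. Cells of 1 mouse are not replicates, and these shares are given without a test.

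Over the cells outside the HSC-like cluster, 0 of the 7 members tested passed for old and very old against young mice in edgeR, with 2 at an unadjusted p under 0.05, and 0 of 10 passed in DESeq2. Of all 15087 genes tested, 0.199% passed. Meg3 stood at 0.0926 and 0.210 in the young male and female, 5.05 and 1.11 in the middle-aged, 6.56 and 0.726 in the old and 1.85 and 0.240 in the very old, a log2 difference of 2.93 (SE 0.79, adjusted p = 0.369) that was 1.19 without the young male and 5.10 without the young female. Its order over the mice resembled that in the HSC-like cells, with the very old female (0.240) little above the young female (0.210). Grb10 stood at 10.0 to 15.1 in every mouse here and differed by -0.06 (adjusted p = 0.979). Ndn was at 1.39 (adjusted p = 0.363), Rian at 1.29 (adjusted p = 0.739), Plagl1 at 0.77, Igf2r at -0.04 and Impact at 0.02. Females against males in these cells gave -2.20 for Meg3 (adjusted p = 0.386), with 0 of 7 members and 0.106% of genes called. For sex, Rian was at -1.16, Ndn at -0.61, Plagl1 at -0.58, Impact at -0.15, Grb10 at 0.21 and Igf2r at 0.23.

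The difference between the 2 cell sets was tested itself, and 2 of 9 members passed, against 3.91% of 15657 genes, 1.62% with a larger and 2.29% with a smaller difference in HSC-like cells. Grb10 changed more in HSC-like cells, by 1.03 (SE 0.23, adjusted p = 0.0101). Meg3 changed less in HSC-like cells, by -1.09 (SE 0.27, adjusted p = 0.0176), from a lower base in the other cells. This joint fit of both cell sets is not the difference of the values fitted to each set alone. It was not repeated with mice left out or in DESeq2. For Ndn the difference was 0.07 (SE 0.31, adjusted p = 0.959). Igf2r (0.90, adjusted p = 0.133), Impact (0.44, adjusted p = 0.175), Rian (0.73, adjusted p = 0.701) and Mirg (-0.59, adjusted p = 0.753) did not pass, nor did Peg3 (0.79, SE 2.32) and H19 (0.55, SE 3.37), whose errors exceed the difference. Igf2r passed without the filter on low counts (0.95, adjusted p = 0.0222).

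In the sum of all cells of a mouse, 1 of 8 tested members passed in edgeR, against 1.21% of 15361 genes called and 1.11% called higher: Ndn, higher by 1.81 (SE 0.28, adjusted p = 0.0337). Meg3 was at 2.56 (SE 0.72, adjusted p = 0.188), Rian at 2.01 (adjusted p = 0.192) and Mirg at 3.96 (adjusted p = 0.158). Rian was at 0.87 without the young male and 3.00 without the young female, and Mirg at 1.86 without the very old male. Meg3 was at 1.115 without the young male and passed, at 4.35, without the young female (adjusted p = 0.0168). In such sums more cells of a type and more RNA per cell cannot be told apart, and the share of HSC-like cells was itself higher in the older mice. Plagl1 was at 0.61 (SE 0.95, adjusted p = 0.868), and Grb10, Igf2r and Impact were at 0.05, 0.04 and 0.09. The Ndn call ended without 6 of the 8 mice left out in turn.

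Among other imprinted genes the movement with age was mixed. Of a list of 63, 62 were in the files and 35 were tested in HSC-like cells: in edgeR 6 were higher in old and very old than in young mice, 2 were lower and 27 did not pass, with a median of 0.04. The 8 called are 22.9% of the 35, against 11.4% of all genes. Cdkn1c, which encodes the cell cycle inhibitor p57, was higher by 1.37 (SE 0.14, adjusted p = 6.02e-05), and Dlk1 by 3.30 (SE 0.56, adjusted p = 0.00226). Snrpn, a splicing protein gene of the same chromosome 7 cluster as Ndn, was higher by 1.99 (SE 0.44, adjusted p = 0.0110). Herc3 (0.96), Zrsr1 (0.78) and the tetraspanin gene Cd81 (0.34) also passed, and the transporter gene Slc22a3 (-0.89) and Tssc4 (-0.41) were lower. The most abundant genes of the list moved little: Kcnq1ot1 was at 0.04, Gnas at -0.21, Tspan32 at -0.01, Nap1l4 at -0.04, Ube3a at -0.06, H13 at -0.13 and Commd1 at -0.11, and none of them passed. At 50 against 14 weeks only Dlk1 of the 35 passed, at 3.76 (SE 0.58, adjusted p = 0.00413), or 2.86% against 2.05% of all genes.

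Dlk1 stood with Meg3 over the mice, though it is read from the other parental copy. Its levels were 1.03 and 1.65 in the young male and female, 38.1 and 3.61 in the middle-aged, 28.6 and 5.44 in the old and 24.6 and 1.21 in the very old, on 4 to 225 UMIs. As with Meg3, the 3 older males stood above the rest, and the very old female lay at the level of the young. Like Rian, Dlk1 passed the filter on low counts through the mice where it was higher. Females were lower in Dlk1 by -2.91 (SE 0.33, adjusted p = 0.000784) and in Cdkn1c by -0.79 (SE 0.11, adjusted p = 0.00288), and none of the other 33 genes tested passed for sex. Cdkn1c levels were 25.6 and 18.2 in the young male and female, 44.1 and 23.7 in the middle-aged, 78.2 and 49.5 in the old and 69.6 and 33.6 in the very old, with the old and very old mice above all younger females.

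Of 12 factors that act on imprint methylation, most of them to keep it, 11 were tested, and in edgeR 5 were lower in old and very old than in young HSC-like cells while 0 were higher, with 3.92% of all genes called lower and a median of -0.24 over the 11. Uhrf1, which brings the maintenance methyltransferase to newly copied DNA, was lower by -1.18 (SE 0.30, adjusted p = 0.0230), Dnmt1, that methyltransferase, by -0.58 (SE 0.15, adjusted p = 0.0230), and Tet3, an oxidase of 5-methylcytosine that acts against methylation, by -0.63 (SE 0.14, adjusted p = 0.00941). The de novo methyltransferase gene Dnmt3a (-0.39) and Trim28 (-0.33), whose protein binds imprints together with zinc-finger factors, were lower too. Ctcf (-0.13), Smchd1 (-0.09) and Zfp445 (-0.24) did not pass. Uhrf1 and Dnmt1 follow DNA replication, and of 12 S phase genes 11 were lower in the same comparison (91.7%, against 3.92% of all genes). The part of dividing cells in these values was not tested, and DNA methylation was not measured. Of 14 genes around IGF and mTOR signalling, 11 were tested and 1 passed (9.09%, near the 11.4% of all genes): Hmga2, a target of the let-7 microRNAs that supports IGF2BP2 expression, lower by -1.03 (SE 0.19, adjusted p = 0.00311). Igf1r (0.25), Akt1 (-0.12) and Rictor (0.20) did not pass.

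The genes most like Meg3 were sought over 56 sums, 7 classes in 8 mice, among 9319 genes, by Pearson's r of the log2 levels. Genes other than members needed a mean of 5 CPM over the sums, and members were let in below it, Rian at a mean of 1.09. Rian came first with 0.92, Cdkn1c sixth with 0.88 and Ndn seventh with 0.88. Outside the lists the nearest were Wfdc2 (0.92), Gm35551 (0.89), Npdc1 (0.88), Nkx2-3 (0.88) and Smim6 (0.88). Grb10 stood at 0.44, Igf2r at 0.54 and Impact at 0.77. The sums share mice and libraries, and a gene high in HSC-like cells alone gains a high r in this way, so these values describe likeness of pattern only.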

How the data were processed

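The values deposited by the authors are raw counts of UMIs for 8 libraries, not normalized, made with Cell Ranger on mm10 per the labels. The file headers and the study's methods give different Cell Ranger versions, and the labels give different chemistries; whether intronic reads were counted is not given in the sources used here. Of the gene identifiers, 32235 matched GENCODE vM21.

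Barcodes with at least 200 genes detected were retained. Clusters were formed with scanpy 1.11.5 and Leiden (leidenalg 0.10.2) at resolution 0.8 on 30 components from 2000 variable genes, corrected per library with an own implementation of Harmony, and named when they had 50 or more cells, 3 or more markers among their 50 leading genes and no other class with more markers among the top 10; clusters far below their libraries' depth with no marker in that top 10 stayed unnamed. Doublets were not removed: Scrublet marked under 0.5% of cells in 4 of the 8 libraries, so removal by score rank was only an alternative. UMIs were summed per mouse and tested with edgeR 4.0.16 (quasi-likelihood, TMM, filterByExpr, age group and sex, Benjamini-Hochberg over all genes; R 4.3.3), and with DESeq2 1.42.0 as an alternative. The scripts were tested on simulated data. The genes described and the lists were chosen with earlier results of these data known. In each comparison the members that passed the filter are named, and list genes when they passed or were among the most abundant.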

Additional observations from a re-analysis of the deposited data

Results flagged for a closer look

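The change from young to old and very old mice differed between HSC-like cells and all other cells for 2 of the 10 genes, by a test of that difference in edgeR. For Grb10 it was 1.03 on the log2 scale (adjusted p = 0.0101): Grb10 was higher with age in HSC-like cells by 1.01 and stood at -0.06 in the other cells. For Meg3 the difference was -1.09 (adjusted p = 0.0176), while separate fits to each cell set gave 2.15 in HSC-like cells and 2.93 in the other cells (1.19 to 5.10 with a mouse left out), where the young mice gave 10 and 30 UMIs. Both calls held with RLE size factors and without the filter on low counts, where Igf2r passed too. No other setting was run for this test: no mouse was left out and DESeq2 was not used. In the fits to HSC-like cells alone, leaving out the young male lowered the age difference to 0.71 for Grb10 and 0.60 for Meg3. The MPP-like cluster with a median of 1870 to 3168 UMIs per cell and 20.7 to 31.6% mitochondrial transcripts held 684 of the Meg3 UMIs outside the HSC-like cells, from 2.35 CPM (UMIs per 1000000) in the young male to 264 in the old male, and its part in the Meg3 difference was not tested.

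For Meg3, the difference between females and males in HSC-like cells was more negative at 50 weeks and over than at 14 weeks, by -2.85, in a comparison built from the pattern it describes after the values were seen, with 1 mouse of each sex at 14 weeks. The call ended without the old male, without the very old female, with cells picked by markers and at resolution 0.4. The 3 older males were each above the female of their age and the young male was not.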

How the results depend on the processing

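Each age and sex was 1 mouse, the very old libraries are a series of their own, and 4 of the 10 genes did not pass the filter on low counts in HSC-like cells. Of these 4, Mirg passed without the filter for middle-aged against young (3.89) and for sex (-2.68), and none passed in DESeq2, which gave several of them no adjusted p. Over single genes of the list, 585 of 693 values under another setting kept their direction and their side of the threshold, 56 lost a call, 12 gained one and 40 changed sign, mostly in differences that were never called. Causes were not tested. The 8 libraries are different mice, so ages and sexes could not be paired, and sex was a term of the fit. The test between HSC-like and other cells took mouse as a block. The alternatives for sex beyond tool, scaling, filter and left-out mice were added after seeing the data.

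Genes called for old and very old against young were 1333, and 554 in DESeq2, 731 without the sex term, 613 with age in weeks, 797 without Harmony and 853 with thinned cells; members called were 5, and 2, 2, 2 and 3 in the first 4 of these. For middle-aged against young they were 240, and 145 in DESeq2 and 715 without the filter (5 members). For very old against old they were 21, and 160 without the filter (1 member, Meg3). For females against males they were 76, and 40 in DESeq2 (1 member), 440 without the filter (4 members), 129 in the 6 mice of 50 weeks and over, 225 with cells picked by markers, 45 at resolution 0.4 and 40 in the 6 libraries of 1 series (1 member). In all cells they were 186, and 397 in DESeq2 and 376 without the filter, and in the other cells 30, and 122 and 108. The sex interaction, of old and very old against young and middle-aged mice together, gave 0, and 2 with RLE factors and 66 without the filter (1 member, Meg3). The added sex contrast gave 3 genes, and 74 without the filter, 14 with thinned cells, 1 at resolution 1.6, and 0 genes and 0 members with cells picked by markers or at resolution 0.4.

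With each mouse left out in turn, genes called ranged from 155 to 1536 for old and very old against young (1 to 5 members), 17 to 356 for middle-aged against young (0 to 3 members), 0 to 46 for very old against old, 32 to 147 for sex (0 to 3 members), 2 to 184 in all cells (0 to 1 members), 0 to 38 in the other cells and 0 to 46 for the added sex contrast (0 to 1 members). Leaving out the young male gave the lowest count in both comparisons with the young mice.

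Signs changed for these uncalled differences. For sex, Igf2r was at 0.16 in the 6 libraries of 1 series, and Impact at 0.0274 with thinned cells, 0.11 without Harmony and 0.0398 in those 6 libraries; for the added sex contrast with cells picked by markers, Ndn was at 0.0314 and Grb10 at 0.26. Over left-out mice, Igf2r ranged from -0.30 to 1.06 and Impact from -0.12 to 0.37 for middle-aged against young. For very old against old, Ndn ranged from -0.61 to 0.24, Grb10 from -0.51 to 0.0723, Rian from -0.70 to 0.52, Igf2r from -0.92 to 0.72 and Impact from -0.25 to 0.0551. For sex, Igf2r ranged from -0.63 to 0.16 and Impact from -0.16 to 0.0652, and for the added sex contrast Ndn from -0.36 to 0.18. In all cells, Plagl1 ranged from -0.90 to 1.39, Grb10 from -0.0111 to 0.13, Igf2r from -0.27 to 0.38 and Impact from -0.0017 to 0.18. In the other cells, Plagl1 ranged from -0.75 to 1.605, Grb10 from -0.12 to 0.0055, Igf2r from -0.32 to 0.29 and Impact from -0.0703 to 0.0938.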
